A study of Mus musculus with 17 samples.

Results

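This report describes what a Gnl3 siRNA changed in the RNA bound to ribosomes at the endoplasmic reticulum (ER) of mouse embryonic stem cells. The comparison takes 5 of the 17 libraries of the study: 3 from ER ribosomes of cells given Gnl3 siRNA (replicates 1 to 3) and 2 from ER ribosomes of cells given a scramble siRNA (replicates 2 and 3). Scramble replicate 1 of this fraction was not analysed here. All cells were one line, Rpl31-FTA E14Tg2a.4, in which the large-subunit protein Rpl31 carries a FLAG, TEV and AviTag sequence, grown in serum with leukemia inhibitory factor. The control cells therefore carry the tag as well, and all groups were taken through ALIBi, in which ribosomes close to the ER membrane are biotinylated on the AviTag, captured and released with TEV protease. Whole-cell RNA (Gnl3 siRNA replicates 1 and 2, scramble replicates 1 to 3) and ER ribosomes of cells given Nmd3 siRNA (replicates 1 to 3) served for comparison. The sequences and doses of the siRNAs, and whether the line is a single clone, are not given in the sources used here, so an effect of 1 siRNA on other transcripts cannot be told apart from that of losing Gnl3.

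Gnl3, also called nucleostemin, is a GTPase of the nucleolus that is abundant in stem cells and takes part in making the large (60S) ribosomal subunit. Nmd3 is the adaptor that carries the 60S subunit out of the nucleus. When 60S assembly is disturbed, free ribosomal proteins can bind Mdm2, the ubiquitin ligase that keeps the transcription factor p53 low, and p53 targets then rise. Ribosomes at the ER translate the mRNAs of secreted and membrane proteins, so the RNA purified with them is rich in these.

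Depth was 22.1, 29.9 and 16.3 M gene counts with Gnl3 siRNA and 18.5 and 18.9 M with scramble. Levels are given as counts per M gene counts (CPM), and changes as log2 fold changes from the edgeR quasi-likelihood test on the raw counts, with a standard error (SE). A gene was called at a Benjamini-Hochberg adjusted p under 0.05 over all genes tested. Log2 CPM of the 5 libraries correlated across genes at 0.9945 to 0.9965, and the counts of libraries of the same group differed by a chi-square of 2.4 to 3.56 per gene, against 4.61 to 7.05 between groups. Replicates are labelled as biological, with no further detail, so the p-values measure the spread between these samples. Counts per cell were not measured, so in these bulk libraries fewer cells of a kind and less RNA per cell cannot be told apart. The strand setting of the counting is not stated, so genes with exons that overlap a named gene in antisense are given after the word opposite, and their reads may be part of its value.

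Gnl3 itself was the gene with the smallest p on ER ribosomes. Gnl3 (opposite Pbrm1) stood at 31.6, 26.9 and 29.7 CPM with Gnl3 siRNA, 164, 263 and 179.8 CPM with Nmd3 siRNA and 170.04 and 177 CPM with scramble. The Gnl3 siRNA libraries lay far below all the others, at a fold of 0.167 of scramble (log2 fold change -2.58, SE 0.05, edgeR adjusted p = 8.87e-32). Nmd3 was at 125, 119.7 and 119.7 CPM with Gnl3 siRNA, 25.2, 24.1 and 25.2 CPM with Nmd3 siRNA and 124 and 119.98 CPM with scramble, and its level with Gnl3 siRNA overlapped that with scramble (-0.02, adjusted p = 0.885). The mRNA of the tagged protein, Rpl31 (opposite Tbc1d8), was at 855, 939.5 and 899.7 CPM with Gnl3 siRNA and 969 and 909 CPM with scramble and was not called (-0.07, adjusted p = 0.207), and the groups overlapped.

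Beyond the targeted gene, the response was broad and shallow. Of 17260 genes tested, 1312 were called (7.6%), 709 of them higher with Gnl3 siRNA (4.11%) and 603 lower (3.49%), while the median over all genes tested was -0.002 on the log2 scale. The median size among called genes was 0.25 on the log2 scale, and only 123 (0.713% of genes tested) were past 1.5-fold, 90 higher and 33 lower. The biological coefficient of variation of these 5 libraries was 0.038. The count was 472 without scramble replicate 2, 652 without scramble replicate 3, and 863 without Gnl3 siRNA replicate 3. With the 3 Nmd3 siRNA libraries also in the fit, 8 ER libraries in all, it was 472, and with Nmd3 siRNA replicate 2 left out of that fit it was 1173. Of 148 called genes picked by the rule for named genes, 86 were called in the fit of 8 libraries and 140 in the fit of 7. With 3 against 2 libraries nearly every called gene, 1307 of 1312, had no overlap between the groups. A lack of overlap in a called gene therefore adds little to its call.

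**Figure D1:**
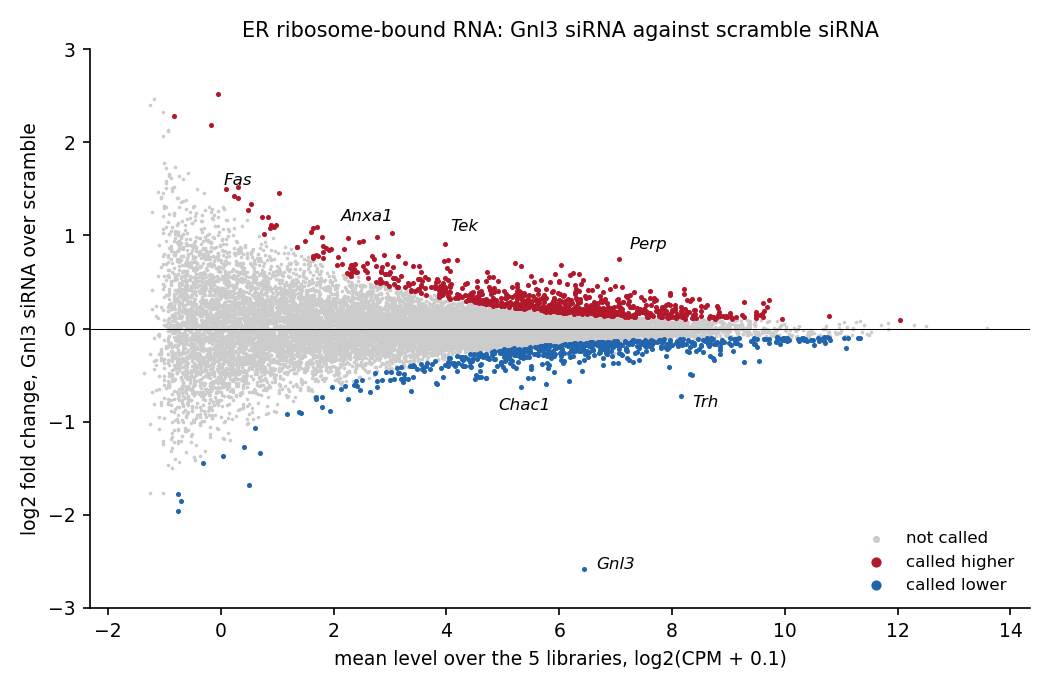
Each point is 1 of the 17260 genes tested, with its mean level over the 5 libraries as log2(CPM + 0.1) on the x axis and the log2 fold change of Gnl3 siRNA over scramble on ER ribosomes on the y axis. Called genes are coloured (709 higher, 603 lower), most lie within 1.5-fold, and Gnl3 at -2.58 stands apart below.

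The genes that rose most were mostly low in level. By a rule that asks for a call, a mean of at least 5 CPM and no overlap between the groups, the 15 highest genes included Anxa1, Robo4, Alox5, Tek, Cd80, Megf11, Krt19, Perp, Dscaml1 (opposite 4833428L15Rik), Mmrn2, Hspa1a (opposite Gm20481), Snx7 and Emp1. Anxa1, an annexin that binds phospholipid and damps inflammation, was at 11.6, 8.76 and 10.2 CPM with Gnl3 siRNA and 4.96 and 4.92 CPM with scramble (log2 fold change 1.02, SE 0.16, edgeR adjusted p = 1.29e-05). Tek, the angiopoietin receptor, was at 21.2, 18.2 and 18 CPM with Gnl3 siRNA and 10.1 and 10.2 CPM with scramble (log2 fold change 0.90, SE 0.11, edgeR adjusted p = 2.18e-07). Robo4, a guidance receptor of endothelium, was at 8.6, 6.32 and 6 CPM with Gnl3 siRNA and 3.72 and 3.49 CPM with scramble (0.94). Tek was the highest of these in level. Alox5, which starts leukotriene synthesis, was at 6.83, 7.02 and 6.12 CPM with Gnl3 siRNA and 3.18 and 3.81 CPM with scramble (0.93). Emp1, a tetraspan epithelial membrane protein, was at 41, 44.7 and 45.5 CPM with Gnl3 siRNA and 26.1 and 27.3 CPM with scramble (log2 fold change 0.70, SE 0.07, edgeR adjusted p = 5.64e-09). Most of these were low, and of the genes named here only Emp1 and Perp were above 20 CPM in every Gnl3 siRNA and scramble library. Others of the 15 were Cd80 (0.79), a T cell costimulator, Megf11 (0.78), Krt19 (0.78), Perp (0.75), Dscaml1 (0.75), Mmrn2 (0.74), Hspa1a (0.71), an inducible Hsp70, and Snx7 (0.70), each with its log2 fold change. Cd80 (adjusted p = 0.18), Megf11 (0.0997), Hspa1a (0.0693) and Snx7 (0.201) missed the threshold without scramble replicate 2, as did Dscaml1 (0.167) without scramble replicate 3. Snx7 (0.0557) missed the threshold without Gnl3 siRNA replicate 3.

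Below Gnl3, the lowest gene was Trh, the precursor of thyrotropin-releasing hormone. Trh stood at 215, 237 and 231 CPM with Gnl3 siRNA, 293, 304 and 305 CPM with Nmd3 siRNA and 376 and 373 CPM with scramble. No Gnl3 siRNA library reached the Nmd3 siRNA or scramble values (log2 fold change -0.73, SE 0.04, edgeR adjusted p = 7.1e-18), and leaving out any 1 library gave -0.76 to -0.68. Fgf15 (opposite Gm26793 and Gm39119), a secreted growth factor, was at 8.01, 7.96 and 9.12 CPM with Gnl3 siRNA and 13 and 13.3 CPM with scramble (-0.67). Inhbb, the beta-B chain of activin and inhibin, was at 47.2, 42.7 and 45.2 CPM with Gnl3 siRNA, 76.5, 65.4 and 74 CPM with Nmd3 siRNA and 66.5 and 68.1 CPM with scramble (log2 fold change -0.59, SE 0.06, edgeR adjusted p = 1.53e-09). Lgals9, a galectin, was at 11, 12 and 12.6 CPM with Gnl3 siRNA and 16.9 and 18.5 CPM with scramble (-0.59). These secreted proteins met the same rule, under which the groups do not overlap. The other 10 of the 15 lowest, which include Gnl3, were Ccnd2 (opposite 9330179D12Rik and Gm43126) (-0.68), a G1 cyclin, Znf41-ps (-0.66), a pseudogene, Chac1 (-0.63), 2610528J11Rik (-0.63), Itpka (-0.61), an inositol trisphosphate kinase, Jdp2 (opposite Gm47863) (-0.61), Pcbd2 (opposite 4930451E10Rik) (-0.58), Dppa3 (-0.58), Rpl36a-ps3 (-0.57), a ribosomal protein pseudogene, and Tnfaip8 (opposite C030005K06Rik) (-0.56). Ccnd2 (adjusted p = 0.0631), Znf41-ps (0.0571), 2610528J11Rik (0.121), Itpka (0.18), Jdp2 (0.164), Dppa3 (0.0742) and Rpl36a-ps3 (0.29) missed the threshold without scramble replicate 2, as did Ccnd2 (0.0773), Znf41-ps (0.204), 2610528J11Rik (0.058), Itpka (0.114), Jdp2 (0.131), Rpl36a-ps3 (0.108) and Tnfaip8 (0.484) without scramble replicate 3. Itpka (0.0694) and Tnfaip8 (0.0731) missed the threshold without Gnl3 siRNA replicate 1, as did Znf41-ps (0.0607) and Rpl36a-ps3 (0.0916) without Gnl3 siRNA replicate 2, as did Znf41-ps (0.0646), 2610528J11Rik (0.0506), Itpka (0.0713), Jdp2 (0.0567) and Rpl36a-ps3 (0.0782) without Gnl3 siRNA replicate 3. Znf41-ps, Rpl36a-ps3 and Tnfaip8 missed it with all 8 ER libraries in the fit (adjusted p = 0.113 to 0.144).

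The transcripts of Gnl3's relatives and of the machinery that builds the 60S subunit had small medians and few calls. The share called lower over all genes tested was 3.49%. Of 6 circularly permuted GTPases, 3 were called lower, Gnl3 itself and Gnl1 (opposite Prr3) at 119, 117 and 121 CPM with Gnl3 siRNA and 134 and 129 CPM with scramble (-0.16, edgeR adjusted p = 0.0161) and Mtg1 (opposite Sprn), a mitochondrial ribosome GTPase, at 28.9, 29.3 and 30.5 CPM with Gnl3 siRNA and 33.7 and 36.2 CPM with scramble (-0.25, adjusted p = 0.0256). Gnl2 (0.01) and Gnl3l (0.03), both nucleolar GTPases, and Lsg1 (-0.03), which releases Nmd3 from the 60S subunit in the cytoplasm, were not called. Among 48 nucleolar 60S assembly factors 7 were at an unadjusted edgeR p under 0.05, all lower, against 3461 of all 17260 genes tested in either direction. In this list edgeR and DESeq2 each called 0, with a median of -0.04 and a range of -0.14 to 0.05. Up to 3 were called lower when 1 library was left out, and 6 with a replicate block. Npm1 (-0.06) and Ncl (-0.07), the major nucleolar proteins, were among those not called. Of 16 factors of 60S export and cytoplasmic maturation 1 was called lower, Ranbp1 (opposite Trmt2a) (-0.11), which stimulates RanGTP hydrolysis, and the list median was -0.06, with 0 to 3 called lower when 1 library was left out and 4 with the block. Of 55 factors of the small subunit 1 was called lower, Nop56 (opposite Idh3b) (-0.11), a box C/D snoRNP core protein, with a median of -0.02, and the count was 0 to 6 when 1 library was left out and 9 with the block. Gnl1 (adjusted p = 0.3), Mtg1 (0.0843), Ranbp1 (0.313) and Nop56 (0.0961) missed the threshold without scramble replicate 2, as did Mtg1 (0.287), Ranbp1 (0.119) and Nop56 (0.377) without scramble replicate 3. Mtg1 (0.0583) missed the threshold without Gnl3 siRNA replicate 1, as did Gnl1 (0.0505), Mtg1 (0.0562) and Nop56 (0.0699) without Gnl3 siRNA replicate 2, as did Ranbp1 (0.124) and Nop56 (0.148) without Gnl3 siRNA replicate 3. Gnl1, Mtg1, Ranbp1 and Nop56 missed it with all 8 ER libraries in the fit (adjusted p = 0.0915 to 0.204).

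The mRNAs of the ribosomal proteins themselves shifted together, by a little, toward lower levels. Of 49 large-subunit mRNAs 30 were called lower and the other 19 were not called, all 49 had a negative log2 fold change (-0.37 to -0.04), and the median was -0.11. Of 33 small-subunit mRNAs 18 were called lower and 1 had a positive sign, with a median of -0.10. Rpl22l1 (opposite Gm33051), a paralogue of Rpl22, differed most, at 109, 122 and 123 CPM with Gnl3 siRNA and 150.2 and 153 CPM with scramble (log2 fold change -0.37, SE 0.05, edgeR adjusted p = 1.38e-07). Rps28 (opposite Kank3) was at 677, 729 and 659 CPM with Gnl3 siRNA and 803 and 767 CPM with scramble (log2 fold change -0.20, SE 0.03, edgeR adjusted p = 0.000105). Rpl36a was at 535, 584 and 559 CPM with Gnl3 siRNA and 641 and 617 CPM with scramble (-0.18). In each the highest Gnl3 siRNA library was under the lower scramble library. Rps12 (-0.17) and Rpl38 (-0.19) were called as well, while Rpl5 (-0.05) and Rpl11 (-0.08), the pair that binds Mdm2 together with 5S rRNA, were not. Ribosomal protein mRNAs have many pseudogenes, among which counting can split reads. These counts rested on scramble replicate 2 most: without it 3 large-subunit and 2 small-subunit mRNAs were called lower, against 20 and 9 without scramble replicate 3, 24 and 9 without Gnl3 siRNA replicate 1, 14 and 7 without Gnl3 siRNA replicate 3 and 33 and 24 without Gnl3 siRNA replicate 2. With all 8 ER libraries in the fit 5 and 3 were called, and 25 and 12 without Nmd3 siRNA replicate 2 there. The medians in whole-cell RNA were 0.03 (40 of 49 positive) and 0.05 (31 of 33 positive), with 1 large-subunit mRNA called lower and 1 small-subunit mRNA called higher. The difference between both fractions had medians of -0.12 and -0.13. edgeR called 0 of these differences, and DESeq2 called 0 and 1. At an unadjusted edgeR p under 0.05 were 33 of 49 and 26 of 33, all more negative on ER ribosomes. Over all 17911 genes tested 1060 were at that p, in either direction. Rpl36a (adjusted p = 0.0734) and Rpl38 (0.0965) missed the threshold without scramble replicate 2.

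Shorter mRNAs in general sat lower. Over the 13903 genes with a coding length, which are 80.6% of the genes tested, the shortest of 5 length classes (36 to 747 bases) had 8.13% called lower and 3.47% called higher, with a median of -0.036. The longest class had 1.69% called lower and 6.06% called higher, with a median of 0.029, and the Spearman rho across these genes, which share all 5 libraries, was 0.13. Several respiratory chain subunits, small proteins of the mitochondrial inner membrane, fell as well. Of 47 nuclear-encoded respiratory chain subunits 7 were called lower, among them Cox7c (-0.16), Ndufa2 (-0.22), Uqcrq (-0.17) and Cox7a2 (-0.15), the list median was -0.05, and the count was 0 without scramble replicate 2, 4 without scramble replicate 3, 3 without Gnl3 siRNA replicate 1 and 4 without Gnl3 siRNA replicate 3. The part of length in the shift of the ribosomal protein mRNAs was not tested. Of 18 snoRNA host genes, 3 were called lower, Snhg5 (-0.25), Snhg8 (-0.40) and 1810032O08Rik (opposite St6galnac2) (-0.30), with a median of -0.13. Cox7c (adjusted p = 0.0794), Ndufa2 (0.121), Uqcrq (0.331), Cox7a2 (0.381) and Snhg8 (0.197) missed the threshold without scramble replicate 2, as did 1810032O08Rik (0.139) without scramble replicate 3. Uqcrq (0.0545) and Cox7a2 (0.0674) missed the threshold without Gnl3 siRNA replicate 1. Ndufa2, Uqcrq and Cox7a2 missed it with all 8 ER libraries in the fit (adjusted p = 0.0622 to 0.14).

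**Figure D2:**
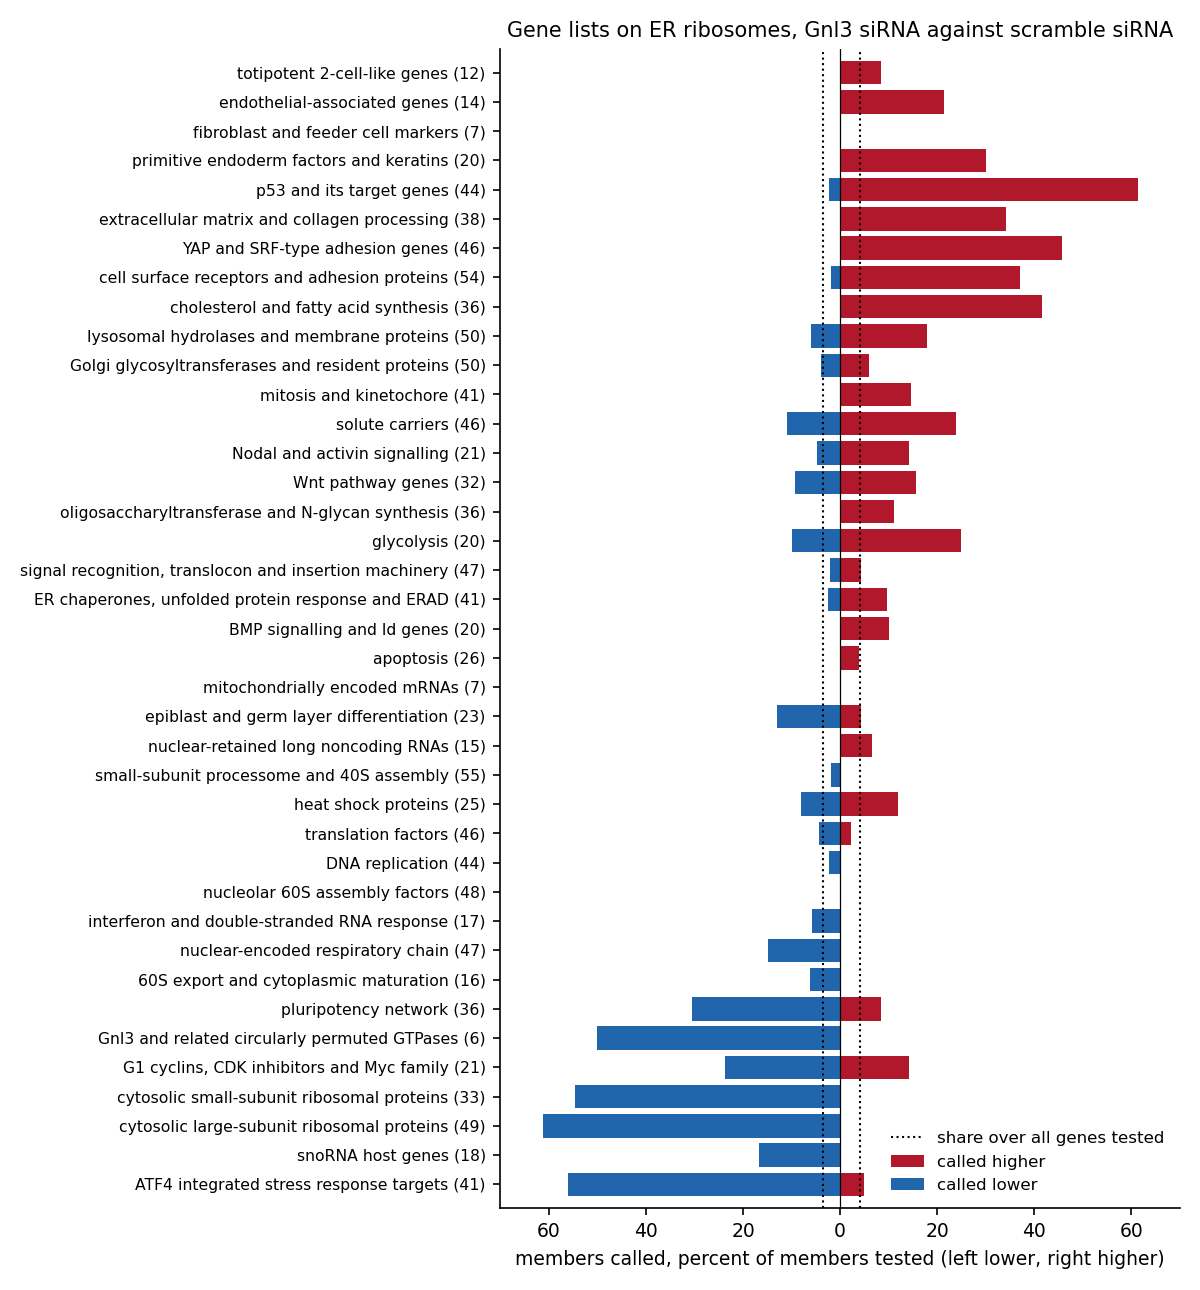
Bars give the percent of the members tested in each of 39 gene lists that were called higher (right) or lower (left) on ER ribosomes with Gnl3 siRNA against scramble, ordered by the list's median log2 fold change, with the number tested in brackets. The dotted lines mark the share over all 17260 genes, 4.11% higher and 3.49% lower, and the p53 list (27 of 44 higher) the large-subunit ribosomal protein list (30 of 49 lower) and the ATF4 list (23 of 41 lower) reach farthest from them.

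Most members of the p53 target list rose. Of 44 genes of the p53 list 27 were called higher and 1 lower, 39 had a positive sign, and the median was 0.20, against -0.002 over all genes. The mRNA of p53, Trp53, was at 522, 477 and 490.3 CPM with Gnl3 siRNA and 482 and 499 CPM with scramble and did not separate (0.01, edgeR adjusted p = 0.943). Mdm2, the ubiquitin ligase that p53 induces and that degrades it, was at 169.5, 157 and 164 CPM with Gnl3 siRNA, 126, 117 and 146 CPM with Nmd3 siRNA and 125 and 129 CPM with scramble (log2 fold change 0.35, SE 0.04, edgeR adjusted p = 1.04e-07). All 3 Gnl3 siRNA libraries were above every scramble and Nmd3 siRNA library. Perp, a tetraspan protein of desmosomes and apoptosis, was at 167, 157 and 153 CPM with Gnl3 siRNA, 111, 112 and 121 CPM with Nmd3 siRNA and 96.4 and 90.9 CPM with scramble (log2 fold change 0.75, SE 0.05, edgeR adjusted p = 2.78e-15). Plk2, a polo-like kinase, was at 88.1, 86.4 and 88.7 CPM with Gnl3 siRNA and 54.4 and 60.6 CPM with scramble (log2 fold change 0.60, SE 0.05, edgeR adjusted p = 1.92e-10). Trp53inp1, a stress-induced nuclear protein, was at 143, 139.9 and 143 CPM with Gnl3 siRNA and 98.9 and 106 CPM with scramble (log2 fold change 0.46, SE 0.04, edgeR adjusted p = 9.71e-10). Neither it, Plk2 nor Perp had any overlap between Gnl3 siRNA and scramble, which holds for 1307 of the 1312 called genes. Epha2, an ephrin receptor, was at 342, 321 and 326 CPM with Gnl3 siRNA and 237 and 249.9 CPM with scramble (log2 fold change 0.43, SE 0.04, edgeR adjusted p = 6.42e-11).

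Several other p53 targets were picked after their values were seen. Btg2, an antiproliferative cofactor, was at 72.7, 71.1 and 67.5 CPM with Gnl3 siRNA and 46.6 and 46.4 CPM with scramble (0.59). Bbc3, which encodes the apoptosis inducer PUMA, was at 69.5, 73.3 and 77.9 CPM with Gnl3 siRNA and 57 and 57 CPM with scramble (0.35), and Fas, a death receptor, was at 1.86, 1.37 and 1.1 CPM with Gnl3 siRNA and 0.43 and 0.63 CPM with scramble (1.43, SE 0.43), with few counts. In these 3 the groups did not overlap. Phlda3 (0.42), an Akt inhibitor, and Ccng1 (0.20), cyclin G1, rose as well. Cdkn1a (opposite AC167363.2), which encodes the cell cycle inhibitor p21, was at 57.7, 60.9 and 58.1 CPM with Gnl3 siRNA and 51.3 and 53.7 CPM with scramble and was not called (0.16, edgeR adjusted p = 0.0915), although its lowest Gnl3 siRNA library was above the higher scramble library. Tigar (opposite Platr31), a fructose bisphosphatase, was the member that fell, at 52.9, 57 and 54.6 CPM with Gnl3 siRNA and 68.8 and 64.9 CPM with scramble (-0.29). Of 26 apoptosis genes, a list that shares members with this one, 1 was called higher (3.85%, against 4.11% of all genes tested). It was Mcl1 (0.12), which protects cells from death. The count of p53 list members called higher was 14 without scramble replicate 2, 15 with all 8 ER libraries in the fit (24 without Nmd3 siRNA replicate 2), and 19 to 26 without any other library. Fas (adjusted p = 0.283), Ccng1 (0.0965), Tigar (0.0606) and Mcl1 (0.15) missed the threshold without scramble replicate 2, as did Fas (0.1) and Mcl1 (0.072) without scramble replicate 3. Fas (0.117) missed the threshold without Gnl3 siRNA replicate 1. Fas, Ccng1 and Mcl1 missed it with all 8 ER libraries in the fit (adjusted p = 0.0956 to 0.134).

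Most members of the list of targets of ATF4, the transcription factor of the integrated stress response, fell. Of 41 genes tested, 23 were called lower and 2 higher, 7 had a positive sign, and the median was -0.16. Some members hold the composite element that ATF4 binds with C/EBP proteins, searched after the data were seen as TGATGNAA on both strands in the 250 bases before each gene start (RefSeq, GRCm38.p6). It stood in 10 of the 37 list members with a window (27%), against 3.91% of all 27025 genes with a window. A gene with several windows was counted once, as a match if any of them held the motif. The list members are known targets, and a match describes the letters only. The windows of 3 members that fell are shown in gene orientation because they carry the match, which stands in capitals.
Chac1 promoter, chr2:119350992-119351241, plus strand: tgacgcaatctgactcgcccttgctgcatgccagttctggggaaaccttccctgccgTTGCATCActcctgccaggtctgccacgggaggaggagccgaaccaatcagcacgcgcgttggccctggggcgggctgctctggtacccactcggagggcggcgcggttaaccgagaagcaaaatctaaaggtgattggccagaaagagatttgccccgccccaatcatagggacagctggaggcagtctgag
Asns promoter, chr6:7693210-7693459, minus strand: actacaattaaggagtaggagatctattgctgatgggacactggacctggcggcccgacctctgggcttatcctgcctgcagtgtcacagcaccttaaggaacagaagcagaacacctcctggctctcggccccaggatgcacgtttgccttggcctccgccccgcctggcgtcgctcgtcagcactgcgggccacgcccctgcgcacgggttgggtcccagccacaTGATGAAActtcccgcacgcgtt
Nupr1 promoter, chr7:126625471-126625720, minus strand: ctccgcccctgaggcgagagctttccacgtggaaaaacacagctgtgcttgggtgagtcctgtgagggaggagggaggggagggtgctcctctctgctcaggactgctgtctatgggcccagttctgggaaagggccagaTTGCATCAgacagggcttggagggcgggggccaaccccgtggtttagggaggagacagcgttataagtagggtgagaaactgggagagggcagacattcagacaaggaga
In Chac1 and Nupr1 the element lies on the other strand and so reads TTGCATCA. The match starts 193 bases before the gene start in Chac1, 23 in Asns and 110 in Nupr1. Chac1, which degrades glutathione, was at 28.9, 35.5 and 33.7 CPM with Gnl3 siRNA, 46.5, 44.9 and 39.3 CPM with Nmd3 siRNA and 52.3 and 48.4 CPM with scramble (log2 fold change -0.63, SE 0.07, edgeR adjusted p = 6.14e-08). Asns, asparagine synthetase, was at 179, 194 and 198 CPM with Gnl3 siRNA, 249, 263 and 233 CPM with Nmd3 siRNA and 216 and 208 CPM with scramble (log2 fold change -0.16, SE 0.04, edgeR adjusted p = 0.00638). Nupr1, a stress-induced chromatin protein picked after its values were seen, was at 25.9, 30 and 30.6 CPM with Gnl3 siRNA and 41.1 and 36.6 CPM with scramble (log2 fold change -0.44, SE 0.08, edgeR adjusted p = 0.000131). In all 3 the Gnl3 siRNA libraries were under both scramble libraries. Asns (adjusted p = 0.235) missed the threshold without scramble replicate 2. Asns missed it with all 8 ER libraries in the fit (adjusted p = 0.146).

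Among the other members of the ATF4 list called lower were enzymes of serine synthesis and carriers of amino acids, though not every carrier fell. Psat1, phosphoserine aminotransferase, was at 373, 389.9 and 410.4 CPM with Gnl3 siRNA and 490.4 and 488 CPM with scramble (log2 fold change -0.33, SE 0.03, edgeR adjusted p = 5.48e-09). Phgdh, the first enzyme of serine synthesis, was at 134, 135 and 139.8 CPM with Gnl3 siRNA and 172 and 169.7 CPM with scramble (log2 fold change -0.34, SE 0.04, edgeR adjusted p = 6.85e-08). Slc7a1, a transporter of cationic amino acids, was at 112, 108 and 113 CPM with Gnl3 siRNA and 142 and 142 CPM with scramble (log2 fold change -0.37, SE 0.04, edgeR adjusted p = 4.45e-08). The groups were well apart in each of these. The mRNA of Atf4 itself was at 311, 342 and 339 CPM with Gnl3 siRNA and 350.5 and 351 CPM with scramble and was not called (-0.09, adjusted p = 0.114), nor was Ddit3 (opposite Gm4189 and Mars), the stress factor CHOP (-0.12, adjusted p = 0.44). Chosen after their values were seen, Gpt2 (-0.47), an alanine aminotransferase, Vegfa (-0.41), an angiogenic factor, and Trib3 (-0.24), a pseudokinase, fell, while Ddit4 (0.19), an mTORC1 inhibitor that p53 induces as well, and Slc38a2 (0.13), a glutamine transporter, rose. Ddit4 was at 173, 178 and 175 CPM with Gnl3 siRNA and 153 and 152 CPM with scramble. The count of ATF4 list members called lower was 10 without scramble replicate 2, 10 with all 8 ER libraries in the fit (23 without Nmd3 siRNA replicate 2), and 18 to 24 without any other library. Vegfa (adjusted p = 0.0859), Trib3 (0.236) and Slc38a2 (0.147) missed the threshold without scramble replicate 2, as did Slc38a2 (0.128) without scramble replicate 3. Vegfa, Trib3 and Slc38a2 missed it with all 8 ER libraries in the fit (adjusted p = 0.0611 to 0.152).

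**Figure D3:**
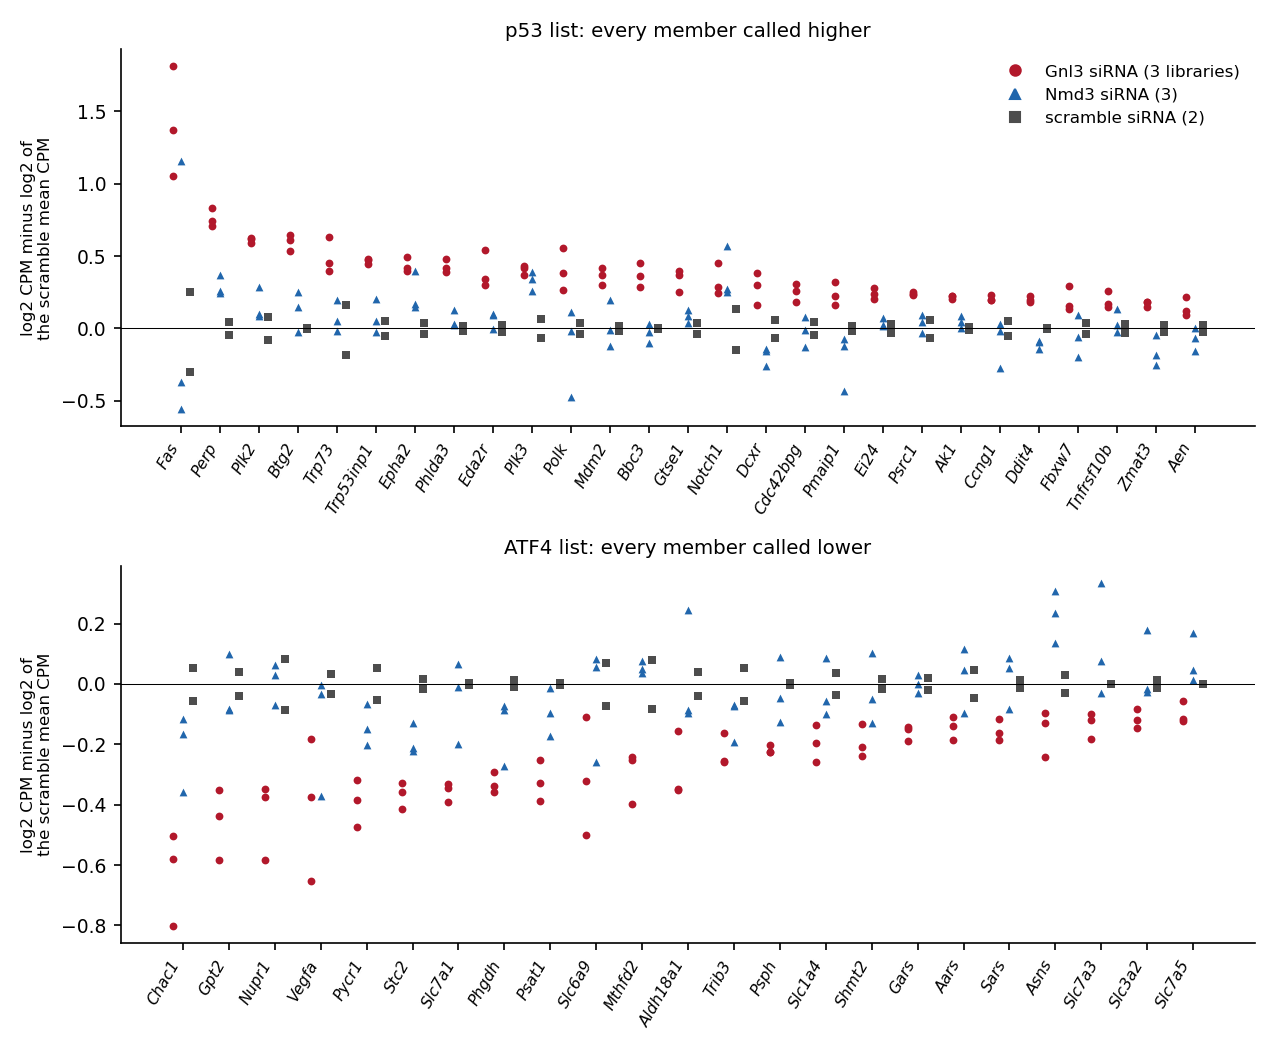
Log2 CPM of single ER ribosome-bound libraries, minus the log2 of the scramble mean CPM, for every p53 list member called higher (27, top) and every ATF4 list member called lower (23, bottom), with Gnl3 siRNA (circles), Nmd3 siRNA (triangles) and scramble (squares) side by side. The members were picked by their calls of Gnl3 siRNA against scramble, so the side on which the circles lie was set by that choice. The choice also favours larger values with Gnl3 siRNA. The triangles of Nmd3 siRNA, which had no part in it, often lie nearer to 0, which therefore cannot show a smaller effect.

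Many genes of cell adhesion, a list drawn from targets of YAP with TEAD and of SRF, rose. Of 46 tested, 21 were called higher and the other 25 were not called, with a median of 0.16. Ccn1, a matricellular protein induced by YAP, was at 64, 65.7 and 63.7 CPM with Gnl3 siRNA, 54.2, 50.7 and 52.8 CPM with Nmd3 siRNA and 43.2 and 47.1 CPM with scramble (log2 fold change 0.51, SE 0.06, edgeR adjusted p = 5.92e-08). Ccn2 (opposite Gm15270), its relative, was at 100.2, 102 and 92.6 CPM with Gnl3 siRNA and 68.2 and 67.6 CPM with scramble (log2 fold change 0.53, SE 0.05, edgeR adjusted p = 1.12e-09). Cavin1, a coat protein of caveolae, was at 86.1, 86.4 and 80.8 CPM with Gnl3 siRNA and 57.5 and 55.6 CPM with scramble (log2 fold change 0.57, SE 0.05, edgeR adjusted p = 5.25e-10). Vim, an intermediate filament protein, was at 339, 328 and 318 CPM with Gnl3 siRNA and 246 and 258 CPM with scramble (log2 fold change 0.37, SE 0.04, edgeR adjusted p = 1e-09), and the groups did not overlap in any of the 4. Picked after their values were seen, Anxa3 (0.65), Axl (0.62), a receptor kinase, and Thbs1 (0.50), thrombospondin, rose further. The TEAD motif GGAATG, on either strand, stood in 16 of 40 list members with a window (40%), against 14.4% of all genes with one. The CArG box of SRF stood in 7 of 40 (17.5%), against 1.62%. The Ccn1 window is shown with its TEAD match, which starts 103 bases before the gene start, in capitals.
Ccn1 promoter, chr3:145649986-145650235, minus strand: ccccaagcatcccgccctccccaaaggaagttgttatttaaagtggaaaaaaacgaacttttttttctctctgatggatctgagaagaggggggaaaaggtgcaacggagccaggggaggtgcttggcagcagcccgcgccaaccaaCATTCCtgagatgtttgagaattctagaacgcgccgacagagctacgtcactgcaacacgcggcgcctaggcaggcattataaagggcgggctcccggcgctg
Among the 15 highest genes 8 had a window, of which 1 held GGAATG, 2 the AP-1 motif TGANTCA and 0 a CArG box or the E-box CACGTG. Among the 15 lowest genes 9 had a window, of which 2 held GGAATG, 1 the AP-1 motif and 0 a CArG box or the E-box. Of all genes with a window 7.82% held the AP-1 motif and 6.86% the E-box. A half-site of p53 was searched after the data were seen. It stood in 11 of 35 p53 list members with a window (31.4%), against 8.2% of all genes with one. The p53 and adhesion lists were drawn from known targets, so a match describes the letters only and says nothing about the siRNA. Among members with a window, the p53 half-site also stood in 5 of 25 in the sterol and fatty acid synthesis list (20%). In the adhesion list it stood in 8 of 40 (20%). The count of members called higher was 11 without scramble replicate 2, 11 without scramble replicate 3, 17 to 19 without a Gnl3 siRNA library, 10 with all 8 ER libraries in the fit, and 21 in that fit without Nmd3 siRNA replicate 2. Axl (adjusted p = 0.275) and Thbs1 (0.299) missed the threshold without scramble replicate 2, as did Axl (0.0877) without scramble replicate 3. Axl (0.0812) missed the threshold without Gnl3 siRNA replicate 1, as did Axl (0.0552) without Gnl3 siRNA replicate 2. Axl missed it with all 8 ER libraries in the fit (adjusted p = 0.0666).

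The extracellular matrix and the cell surface, whose proteins are made at the ER, moved in the same direction. Of 38 matrix and collagen-processing genes tested, of a list of 45, 13 were called higher, with a median of 0.19. Lamc1, a laminin chain of basement membrane, was at 347, 359.6 and 354 CPM with Gnl3 siRNA and 292 and 272 CPM with scramble (log2 fold change 0.31, SE 0.04, edgeR adjusted p = 4.58e-08). Sparc, a collagen-binding glycoprotein, was at 496, 467 and 472 CPM with Gnl3 siRNA and 417 and 398 CPM with scramble (log2 fold change 0.22, SE 0.03, edgeR adjusted p = 1.59e-05). Plod2 (opposite Gm38391), a collagen lysyl hydroxylase, was at 94.6, 94.7 and 95.3 CPM with Gnl3 siRNA and 68 and 67.2 CPM with scramble (log2 fold change 0.48, SE 0.05, edgeR adjusted p = 3.99e-09). In each the groups were apart. Col4a1 (opposite Col4a2), a chain of basement membrane collagen, was at 23.4, 22.1 and 24.4 CPM with Gnl3 siRNA and 15.2 and 17.7 CPM with scramble (0.49), and Hspg2 (0.30), perlecan, and Fn1 (0.14), fibronectin, were called higher too. Of 54 surface receptors and adhesion proteins 20 were called higher and 1 lower, with a median of 0.15. Plxnb2, a semaphorin receptor, was at 117, 112 and 113 CPM with Gnl3 siRNA and 80 and 84.3 CPM with scramble (log2 fold change 0.46, SE 0.05, edgeR adjusted p = 3.52e-09). Sdc4, a heparan sulfate proteoglycan, was at 161, 162 and 158 CPM with Gnl3 siRNA and 121 and 128 CPM with scramble (0.35). Both were free of overlap, as was Kit, the stem cell factor receptor and the member that fell, at 82.3, 92.2 and 91.7 CPM with Gnl3 siRNA and 98.4 and 99.6 CPM with scramble (-0.17). Cd81 (opposite R74862) (0.31), a tetraspanin, Itgb1 (0.16), integrin beta 1, and Efnb1 (0.67), an ephrin picked after its values were seen, rose. The count of matrix genes called higher was 9 to 13 when 1 library was left out, 5 with all 8 ER libraries in the fit and 13 in that fit without Nmd3 siRNA replicate 2. The count of receptors was 13 without scramble replicate 2, 12 without scramble replicate 3, 9 with all 8 ER libraries and 20 without Nmd3 siRNA replicate 2 there. Col4a1 (adjusted p = 0.0712), Fn1 (0.167) and Kit (0.184) missed the threshold without scramble replicate 2, as did Fn1 (0.142), Kit (0.186), Itgb1 (0.0542) and Efnb1 (0.0523) without scramble replicate 3. Kit (0.16) missed the threshold without Gnl3 siRNA replicate 1, as did Fn1 (0.195) without Gnl3 siRNA replicate 3. Lamc1, Hspg2, Fn1, Kit and Itgb1 missed it with all 8 ER libraries in the fit (adjusted p = 0.0791 to 0.886).

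Lists for other cell types had higher medians than those of the matrix (0.19) and adhesion (0.16) lists, at 0.22 for primitive endoderm and keratins, 0.28 for endothelium and 0.23 for fibroblasts. For scale, 4.11% of all genes tested were called higher. Of 20 genes for primitive endoderm and keratins tested, 6 were called higher, and 4 of the 6 are matrix genes that stand in the matrix list as well (Sparc, Lamc1, Lama1 and Col4a1). The others were Krt8 (0.40) and Krt19, simple epithelial keratins, the second at 9.82, 10.7 and 11.1 CPM with Gnl3 siRNA and 6.53 and 5.61 CPM with scramble. The defining factors of primitive endoderm (Gata6, Gata4, Sox17, Pdgfra, Foxa2, Sox7 and Dab2) summed to 12.4 to 13.6 CPM with Gnl3 siRNA and 11.4 to 11.8 CPM with scramble, and of the 5 that could be tested edgeR called none. Of 14 endothelial-associated genes 3 were called higher: Tek, Robo4 and Eng (opposite Fpgs), a TGF-beta co-receptor, at 91, 86.5 and 85.5 CPM with Gnl3 siRNA and 61 and 65 CPM with scramble (0.47). The 6 endothelial markers summed to 98.8 to 103 CPM with Gnl3 siRNA and 91 to 96.6 CPM with scramble, Emcn was at 0 in all 5 libraries, and Tek was the marker called. Fibroblast markers summed to 36.2 to 38.6 CPM with Gnl3 siRNA and 32.6 to 33.4 CPM with scramble, with 5 of 7 under 1 CPM in all 5 libraries. In the longer fibroblast list 7 genes could be tested, with 6 of them positive, at -0.17 to 1.40. Both edgeR and DESeq2 called 0, and 4 were higher at an unadjusted edgeR p under 0.05. At that p were 3461 of all 17260 genes tested, in either direction. Of 12 genes of 2-cell-like cells 1 was called higher, Usp17la (1.19), a member of a multigene family picked after its values were seen, with a list median of 0.42 and 0 called by DESeq2. Trophoblast markers summed to 4.21 to 6.79 CPM with Gnl3 siRNA and 4.44 to 5.02 CPM with scramble. The part of other cell types in the rise of the matrix and adhesion genes was not tested. Usp17la (adjusted p = 0.0953) missed the threshold without scramble replicate 2, as did Krt8 (0.101) and Usp17la (0.264) without scramble replicate 3. Usp17la (0.126) missed the threshold without Gnl3 siRNA replicate 1, as did Usp17la (0.0511) without Gnl3 siRNA replicate 2. Usp17la missed it with all 8 ER libraries in the fit (adjusted p = 0.0644).

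Genes of sterol and fatty acid synthesis leaned higher. Of 36 genes 15 were called higher, 35 had a positive sign, and the median was 0.15. Insig1, the ER protein that holds SREBP back when sterols are plentiful and is itself an SREBP target, was at 97.4, 101 and 105 CPM with Gnl3 siRNA, 96.5, 91.6 and 97.3 CPM with Nmd3 siRNA and 75.3 and 75 CPM with scramble (log2 fold change 0.42, SE 0.05, edgeR adjusted p = 7.45e-08). Msmo1, a sterol methyl oxidase, was at 68.3, 76.9 and 78.1 CPM with Gnl3 siRNA and 58.2 and 57.1 CPM with scramble (log2 fold change 0.36, SE 0.06, edgeR adjusted p = 3.25e-05). The groups were apart in both, and for Insig1 the Nmd3 siRNA libraries were also above scramble. Scd2, a fatty acid desaturase, was at 869, 869.6 and 892 CPM with Gnl3 siRNA and 736 and 745 CPM with scramble (0.23), and the regulator Srebf2 was called higher (0.18). Without scramble replicate 2 the count was 10, and with all 8 ER libraries in the fit it was 8 (14 without Nmd3 siRNA replicate 2). Srebf2 (adjusted p = 0.103) missed the threshold without scramble replicate 2.

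The rest of the secretory pathway changed in few members. For scale, 4.11% of all genes tested were called higher and 3.49% lower. Of 41 ER chaperone and unfolded protein response genes 4 were called higher (0 without scramble replicate 3) and 1 lower, with a median of 0.04, and Hspa5, the chaperone BiP, was not called (0.05). Of 47 genes for signal recognition, translocation and insertion 2 were called higher, Ssr3 (0.19), a translocon-associated subunit, and Ckap4 (0.23), and 1 lower, Sec61b (-0.16). For oligosaccharyltransferase and N-glycan genes 4 of 36 were called higher (0 without either scramble library or without Gnl3 siRNA replicate 3), and for Golgi genes 3 of 50 higher (0 to 4 when 1 library was left out) and 2 lower (0 to 2), of which DESeq2 called 1 and 1. Lysosomal genes had 9 of 50 called higher and 3 lower, with a median of 0.08. Among them were Ctsd, cathepsin D, at 280.5, 284 and 287 CPM with Gnl3 siRNA and 235 and 236 CPM with scramble (0.26), Laptm4a, at 271, 281 and 274 CPM with Gnl3 siRNA and 221 and 204 CPM with scramble (0.36), and, lower, Manba (-0.28), a mannosidase. Of 46 solute carriers 11 were called higher and 5 lower. The glucose transporter Slc2a1 was at 839, 809.6 and 865 CPM with Gnl3 siRNA and 672 and 706 CPM with scramble (log2 fold change 0.27, SE 0.03, edgeR adjusted p = 8.6e-08), without overlap. Slc16a3 (0.30), a lactate carrier, rose as well. The amino acid carriers went both ways: Slc7a1, Slc7a3 (-0.15), Slc3a2 (-0.13) and Slc7a5 (-0.11) fell, and Slc38a2, Slc7a7 (0.12) and Slc38a4 (0.11) rose. With all 8 ER libraries in the fit 0 solute carriers were called higher and 1 lower, and 9 and 4 without Nmd3 siRNA replicate 2 there. In the same fit 3 lysosomal genes and 0 glycolysis genes were called higher, and 7 and 5 without that replicate. Without scramble replicate 2, scramble replicate 3 and Gnl3 siRNA replicate 3 the counts called higher were 5, 4 and 5 for lysosomal genes, 4, 6 and 7 for solute carriers and 2, 3 and 2 for glycolysis, in that order. Solute carriers called lower numbered 1 without either scramble library and 2 without Gnl3 siRNA replicate 2. Among 25 heat shock proteins 3 were higher (1 to 4 when 1 library was left out) and 2 lower (0 to 3), with Hspb1, a small heat shock protein, at 659, 653 and 702 CPM with Gnl3 siRNA and 543 and 551 CPM with scramble (0.29). Glycolysis had 5 of 20 higher and 2 lower. Ckap4 (adjusted p = 0.053), Sec61b (0.0825), Slc7a3 (0.143), Slc3a2 (0.0794), Slc7a5 (0.248), Slc7a7 (0.257) and Slc38a4 (0.336) missed the threshold without scramble replicate 2, as did Sec61b (0.24), Slc7a3 (0.0914), Slc3a2 (0.129), Slc7a5 (0.148), Slc7a7 (0.144) and Slc38a4 (0.131) without scramble replicate 3. Sec61b (0.0678) and Slc7a7 (0.084) missed the threshold without Gnl3 siRNA replicate 1, as did Slc7a3 (0.0523), Slc7a5 (0.0802) and Slc38a4 (0.0764) without Gnl3 siRNA replicate 2, as did Slc7a7 (0.0624) and Slc38a4 (0.0815) without Gnl3 siRNA replicate 3. Ckap4, Sec61b, Ctsd, Slc2a1, Slc16a3, Slc7a3, Slc3a2, Slc7a5, Slc7a7 and Slc38a4 missed it with all 8 ER libraries in the fit (adjusted p = 0.0739 to 0.823).

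The pluripotency network leaned lower. Of 36 genes 11 were called lower and 3 higher, with a median of -0.06. Nanog was at 485, 511 and 511 CPM with Gnl3 siRNA, 653, 586 and 648 CPM with Nmd3 siRNA and 598 and 585 CPM with scramble (log2 fold change -0.25, SE 0.03, edgeR adjusted p = 8.26e-07). Tdh (opposite Gm17232), threonine dehydrogenase, an enzyme typical of mouse embryonic stem cells, was at 546, 571 and 563 CPM with Gnl3 siRNA and 726 and 702 CPM with scramble (log2 fold change -0.36, SE 0.03, edgeR adjusted p = 1.08e-10). Pou5f1 (opposite Gm19553), which encodes Oct4, was at 1475, 1495 and 1508 CPM with Gnl3 siRNA and 1621 and 1568 CPM with scramble (log2 fold change -0.11, SE 0.03, edgeR adjusted p = 0.0158). The Gnl3 siRNA libraries were below scramble in each, by far less for Pou5f1 than for Tdh. Esrrb, a nuclear receptor, was at 425, 443 and 433 CPM with Gnl3 siRNA and 495 and 496 CPM with scramble (-0.20). Dppa5a, an RNA-binding protein, was at 1973, 2118 and 2093 CPM with Gnl3 siRNA and 2405 and 2317 CPM with scramble (-0.21). Dppa3, a maternal factor that guards DNA methylation, was at 7.69, 8.19 and 7.29 CPM with Gnl3 siRNA and 11.7 and 11.3 CPM with scramble (-0.58), and all 3 were free of overlap. Sox2 (-0.04) and Klf4 (-0.05) were not called, and Il6st (0.15), the co-receptor of the LIF receptor, Socs3 (0.20) and Gbx2 (0.18), targets of LIF signalling, rose. The 8 embryonic stem cell markers summed to 8410 to 8790 CPM with Gnl3 siRNA and 9150 to 9410 CPM with scramble, with 5 called lower. The count called lower was 5 without scramble replicate 2 and 7 with all 8 ER libraries in the fit (10 without Nmd3 siRNA replicate 2). Pou5f1 (adjusted p = 0.381), Dppa3 (0.0742) and Il6st (0.116) missed the threshold without scramble replicate 2, as did Il6st (0.369) and Gbx2 (0.578) without scramble replicate 3. Il6st (0.0522) and Gbx2 (0.0718) missed the threshold without Gnl3 siRNA replicate 1, as did Il6st (0.101) without Gnl3 siRNA replicate 2, as did Pou5f1 (0.0607), Il6st (0.0821) and Gbx2 (0.119) without Gnl3 siRNA replicate 3. Pou5f1, Il6st and Gbx2 missed it with all 8 ER libraries in the fit (adjusted p = 0.122 to 0.337).

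Genes of differentiation and of its signals went both ways. The shares over all genes tested were 4.11% called higher and 3.49% lower. Of 23 epiblast and germ layer genes 1 was called higher and 3 lower: Otx2 (opposite Otx2os1), a homeobox factor of epiblast and forebrain, was at 22.9, 22 and 21.6 CPM with Gnl3 siRNA, 22.6, 22 and 24.5 CPM with Nmd3 siRNA and 31.7 and 32 CPM with scramble (log2 fold change -0.53, SE 0.08, edgeR adjusted p = 8.93e-06), and Dnmt3a (opposite Dnmt3aos) (-0.27), a de novo DNA methyltransferase, fell. Lef1 (opposite Gm43352), a Wnt effector, was at 61.4, 58.2 and 62.3 CPM with Gnl3 siRNA, 64.1, 59.8 and 65.4 CPM with Nmd3 siRNA and 93.2 and 83.8 CPM with scramble (log2 fold change -0.56, SE 0.05, edgeR adjusted p = 1e-09). For both Otx2 and Lef1 the Nmd3 siRNA libraries were as low as those with Gnl3 siRNA. Of 32 Wnt pathway genes 5 were called higher and 3 lower, the others lower being Ccnd1 (opposite LTO1) (-0.27), cyclin D1, and Fzd7 (-0.19), a receptor, and those higher numbered 0 and 1 without scramble replicates 2 and 3 and 2 and 1 without Gnl3 siRNA replicates 2 and 3. Id1, an inhibitor of differentiation induced by BMP, was at 137, 127 and 127 CPM with Gnl3 siRNA, 96.8, 97.9 and 93.5 CPM with Nmd3 siRNA and 88.5 and 90.5 CPM with scramble (log2 fold change 0.53, SE 0.05, edgeR adjusted p = 7.93e-11). Nodal, a TGF-beta family ligand, was at 169, 159 and 165 CPM with Gnl3 siRNA and 139 and 138 CPM with scramble (log2 fold change 0.23, SE 0.04, edgeR adjusted p = 0.000112). Both rose without overlap, as did Bmp4 (0.19), while Inhbb of the same family fell. Of 21 genes of Nodal and activin signalling 3 were called higher (1 to 3 when 1 library was left out) and 1 lower, and of 20 of BMP signalling 2 higher (1 to 2). Summed germ layer markers were at 54.1 to 56.3 CPM with Gnl3 siRNA and 61.8 to 63.4 CPM with scramble. Fzd7 (adjusted p = 0.161) and Bmp4 (0.152) missed the threshold without scramble replicate 2, as did Bmp4 (0.29) without scramble replicate 3. Bmp4 (0.0718) missed the threshold without Gnl3 siRNA replicate 1, as did Bmp4 (0.138) without Gnl3 siRNA replicate 2. Fzd7 and Bmp4 missed it with all 8 ER libraries in the fit (adjusted p = 0.0548 to 0.161).

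Among genes of G1 and the Myc family, 3 of 21 were called higher and 5 lower. Mycn, the Myc family member of these cells, was at 292, 292 and 281 CPM with Gnl3 siRNA and 337 and 341 CPM with scramble (log2 fold change -0.24, SE 0.03, edgeR adjusted p = 2.55e-06). Rb1 (opposite Lpar6 and Rcbtb2), the retinoblastoma protein, which holds back entry into S phase, was at 30.2, 29.1 and 29.2 CPM with Gnl3 siRNA and 21.3 and 19.9 CPM with scramble (log2 fold change 0.51, SE 0.08, edgeR adjusted p = 3.96e-05). Ccnd2 was at 5.93, 4.31 and 4.71 CPM with Gnl3 siRNA and 7.77 and 8.04 CPM with scramble (-0.68), and Ccnd3 (-0.13) also fell. Every Gnl3 siRNA library was above both scramble libraries for Rb1 and below them for Mycn and Ccnd2. Of 41 genes for mitosis 6 were called higher, and of 44 for DNA replication 1 was called lower. Of 46 translation factors 1 was called higher and 2 lower, of 17 interferon genes 1 lower, Ifitm1 (-0.36), and of 15 nuclear long noncoding RNAs 1 higher, Neat1 (0.37). Of all genes tested 4.11% were called higher and 3.49% lower. The counts for DNA replication, translation factors, interferon genes and noncoding RNAs lie near these shares. For the 7 mitochondrially encoded mRNAs edgeR and DESeq2 called 0, with 3 at an unadjusted edgeR p under 0.05, against 3461 of all 17260 genes tested. Mitosis genes called higher numbered 1 without either scramble library and 3 without Gnl3 siRNA replicate 3, and G1 genes called lower 2 and 3 without scramble replicates 2 and 3. Ccnd2 (adjusted p = 0.0631), Ccnd3 (0.175), Ifitm1 (0.162) and Neat1 (0.499) missed the threshold without scramble replicate 2, as did Ccnd2 (0.0773) and Ccnd3 (0.102) without scramble replicate 3. Neat1 (0.117) missed the threshold without Gnl3 siRNA replicate 1, as did Ifitm1 (0.0602) without Gnl3 siRNA replicate 2, as did Ccnd3 (0.0951) and Neat1 (0.119) without Gnl3 siRNA replicate 3. Ccnd3 and Neat1 missed it with all 8 ER libraries in the fit (adjusted p = 0.117 to 0.119).

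**Figure D4:**
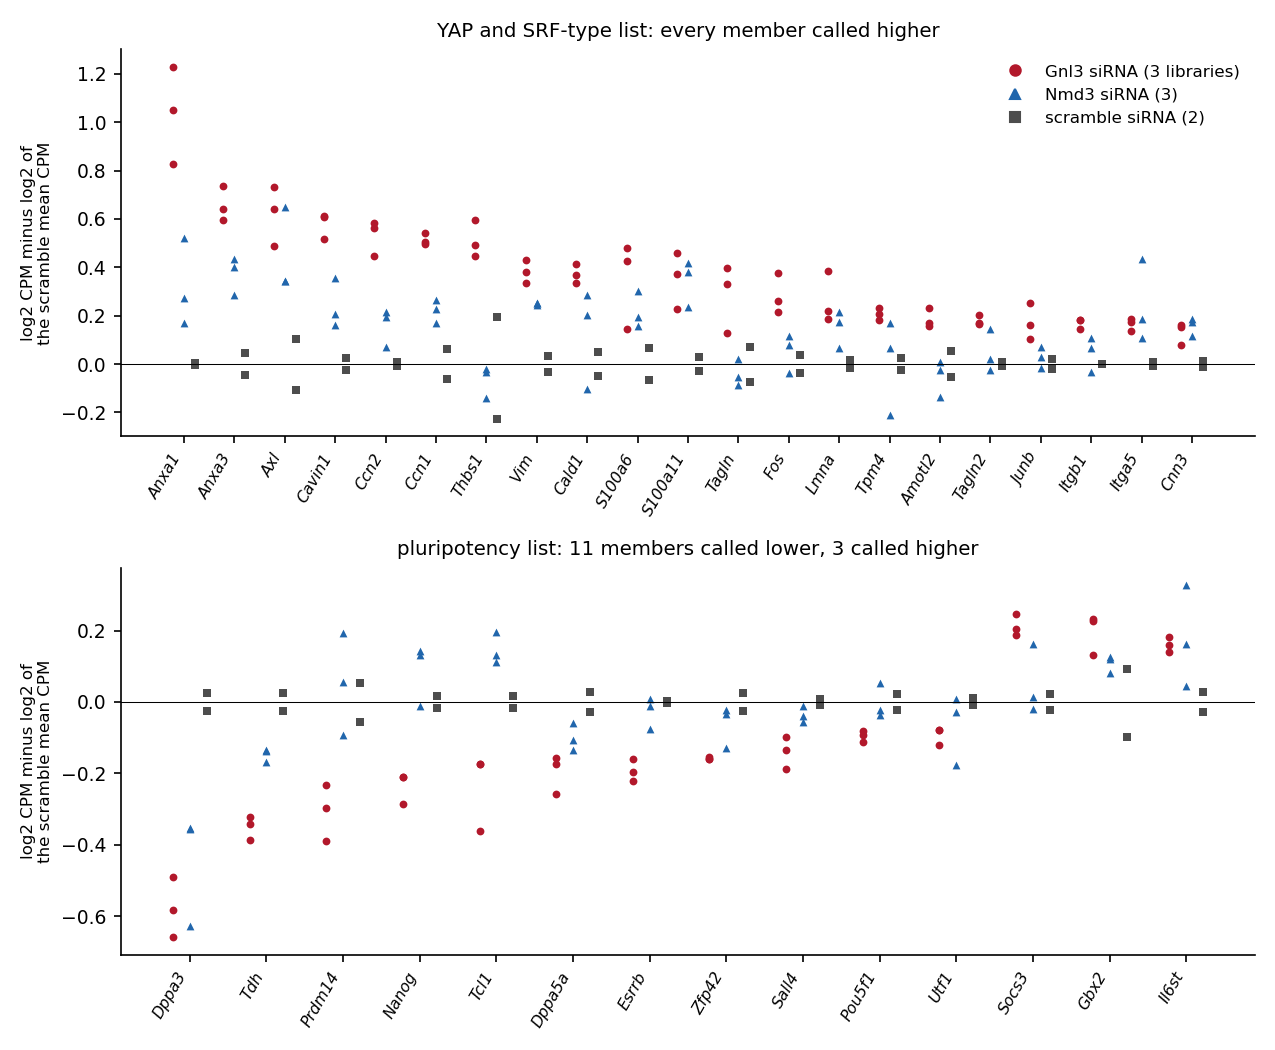
Log2 CPM of single ER ribosome-bound libraries, minus the log2 of the scramble mean CPM, for the 21 adhesion list members called higher (top) and for the pluripotency list members called on ER ribosomes (11 lower, 3 higher, bottom), with Gnl3 siRNA (circles), Nmd3 siRNA (triangles) and scramble (squares). For Nanog 2 of the 3 triangles lie above both squares.

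The response was also divided by how strongly an mRNA is bound to ER ribosomes. Binding was taken as the log2 ratio of ER ribosome-bound to whole-cell RNA in Nmd3 siRNA replicates 1 and 3, which do not enter the comparison. Of 3420 genes enriched by over 0.5 on this scale, 7.46% were called higher and 3.19% lower, with a median log2 fold change of 0.033. Of the 10792 genes between both limits 3.43% were called higher and 4.22% lower, and of the 3048 depleted genes 2.76% higher and 1.28% lower. Genes called higher were enriched in 36% of cases, against 19.8% of all genes tested and 18.1% of genes called lower.

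The same question in whole-cell RNA gave fewer calls. Of 17163 genes tested, 272 were called (1.58%), 160 higher (0.932%) and 112 lower (0.653%). In both fractions 217 genes were called in the same direction. These 217 are 16.5% of the genes called on ER ribosomes and 79.8% of those called in whole-cell RNA. The comparisons share the lysates of Gnl3 siRNA replicates 1 and 2 and scramble replicates 2 and 3, so they are not independent. Genes called higher on ER ribosomes had a median of 0.27 there and 0.16 in whole-cell RNA, and those called lower -0.23 and -0.10. These genes were picked by their calls on ER ribosomes, which favours larger values there. The medians therefore cannot show in which fraction the change was larger. With Gnl3 siRNA whole-cell replicate 3, which the labels give as left out by the submitters, in the fit, edgeR called 0 genes (420 at an unadjusted p under 0.05). The count was 126 without Gnl3 siRNA whole-cell replicate 1, 181 without scramble whole-cell replicate 1 and 176 without scramble whole-cell replicate 3.

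Gnl3 in whole-cell RNA was at 70.2 and 54.2 CPM with Gnl3 siRNA and 272, 270.1 and 256 CPM with scramble (log2 fold change -2.10, SE 0.07, edgeR adjusted p = 2.01e-15), and at 88.2 CPM in the Gnl3 siRNA replicate left out. Many p53 targets and ATF4 targets were called there as well: 21 of 43 p53 list members tested were called higher, with a median of 0.22, and 16 of 41 ATF4 list members were called lower, with a median of -0.20 (8 without Gnl3 siRNA whole-cell replicate 1). Mdm2 was at 168 and 149.9 CPM with Gnl3 siRNA and 121, 115 and 123 CPM with scramble in whole-cell RNA (0.41). Perp was at 63.1 and 61.3 CPM with Gnl3 siRNA and 41.2, 40.1 and 38.5 CPM with scramble (0.65), and Id1 was at 103 and 95.6 CPM with Gnl3 siRNA and 67.6, 63.8 and 58.7 CPM with scramble (0.66). In these 3 the groups did not overlap in whole-cell RNA either. The share of all genes free of overlap was not counted in that fraction. Of 39 matrix genes tested, 2 were called higher in whole-cell RNA, with a median of 0.06, and of the sterol genes 2 of 36, with a median of 0.11. Lamc1 had 0.08 there, and the difference from its change on ER ribosomes was 0.24 (edgeR adjusted p = 0.776), which missed the threshold.

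**Figure D5:**
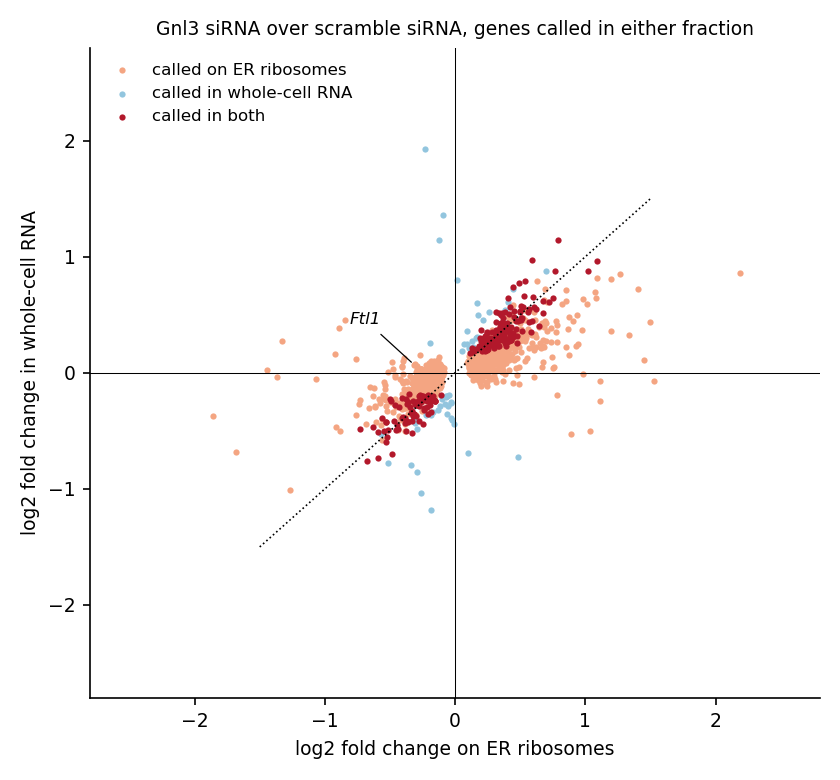
Log2 fold change of Gnl3 siRNA over scramble on ER ribosomes (x axis) and in whole-cell RNA (y axis) for genes called in either fraction, Gnl3 left out. The points of the 217 genes called in both lie in the lower left and upper right, around the dotted line of equal change, and Ftl1 lies left of 0 on the x axis and near 0 on the y axis.

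The change on ER ribosomes was then tested against the change in whole-cell RNA for each gene. Of 17911 genes tested, 1 was called (0.00558%), with 1060 at an unadjusted p under 0.05, and DESeq2 called 4. The gene was Ftl1, the ferritin light chain, which stores iron (opposite Gm10252). On ER ribosomes it was at 363, 408 and 385 CPM with Gnl3 siRNA and 476 and 475 CPM with scramble, and in whole-cell RNA at 583 and 585 CPM with Gnl3 siRNA and 566, 557 and 556 CPM with scramble. It was lower on ER ribosomes and overlapped neither scramble library there, while in whole-cell RNA it was slightly above scramble. The change was -0.31 on ER ribosomes (edgeR adjusted p = 6.35e-08) and 0.07 in whole-cell RNA (adjusted p = 0.614), and the difference was -0.37 (SE 0.06, adjusted p = 0.000161). Ftl1 has pseudogenes among which reads can be split. With the Gnl3 siRNA whole-cell replicate that the submitters left out, where Ftl1 was at 42.3 CPM, the difference was 0.16 (adjusted p = 0.972), and leaving out 1 library raised the count of genes called to as many as 37 (scramble whole-cell replicate 2), 11 (Gnl3 siRNA ER replicate 2) and 7 (Gnl3 siRNA whole-cell replicate 2). For Gnl3 the difference was -0.48 (adjusted p = 0.356).

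Gnl3 siRNA was last set against Nmd3 siRNA on ER ribosomes, which asks where losing these 60S factors differs. Several p53 targets were higher with Gnl3 siRNA than with Nmd3 siRNA, several ATF4 targets and pluripotency genes were lower, and no sterol gene was called. Of 16992 genes tested, 258 were called (1.52%), 138 higher with Gnl3 siRNA (0.812%) and 120 lower (0.706%). In Nmd3 siRNA replicate 2 Gnl3 was at 263 CPM, against 164 and 179.8 CPM in the other Nmd3 siRNA libraries, and without it 604 of 17304 genes were called (3.49%), 343 higher (1.98%) and 261 lower (1.51%). The count was 81 without Gnl3 siRNA replicate 1, 114 without Gnl3 siRNA replicate 2, 114 without Gnl3 siRNA replicate 3 and 149 without Nmd3 siRNA replicate 1. Gnl3 differed by -2.81 (edgeR adjusted p = 0.0237) and by -2.56 (SE 0.06, adjusted p = 1.99e-36) without that replicate. Nmd3 differed by 2.27 (adjusted p = 1.23e-16).

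Of the 44 p53 list members 16 were called higher with Gnl3 siRNA than with Nmd3 siRNA, with a median of 0.20, and 21 without Nmd3 siRNA replicate 2, 8 without Gnl3 siRNA replicate 1 and 10 without Gnl3 siRNA replicate 3. Perp differed by 0.45 (edgeR adjusted p = 5.53e-05), Plk2 by 0.43, Trp53inp1 by 0.38 and Mdm2 by 0.32 (adjusted p = 0.0128). Epha2 was not called (0.18, adjusted p = 0.241) but was without Nmd3 siRNA replicate 2 (0.28, adjusted p = 6.6e-06). Of 41 ATF4 list members 9 were called lower and 1 higher, with a median of -0.19, and without Nmd3 siRNA replicate 2 the counts were 18 and 1. Without Gnl3 siRNA replicate 1 the count lower was 4. Asns, at 179, 194 and 198 CPM with Gnl3 siRNA and 249, 263 and 233 CPM with Nmd3 siRNA, differed by -0.40 (adjusted p = 0.000329), and Chac1 by -0.43. Nanog differed by -0.34 (adjusted p = 0.000121), one of 7 pluripotency genes called lower (12 without Nmd3 siRNA replicate 2). Of the 36 sterol genes edgeR and DESeq2 called 0, with a median of 0.00. At an unadjusted edgeR p under 0.05 were 6 of them, against 2136 of all 16992 genes tested. Insig1 differed by 0.07 (adjusted p = 0.631), Lef1 by -0.07 and Otx2 by -0.07, none of them called.

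The genes farthest apart between both knockdowns included some that Nmd3 siRNA libraries held at lower levels than both other groups. Impact, a regulator of the kinase Gcn2, was at 261, 248 and 249.6 CPM with Gnl3 siRNA, 162, 149.6 and 166 CPM with Nmd3 siRNA and 229 and 240.2 CPM with scramble (log2 fold change 0.66, SE 0.05, edgeR adjusted p = 4.24e-08, Gnl3 over Nmd3 siRNA). Mroh1 (opposite Bop1) was at 23.6, 25 and 24.6 CPM with Gnl3 siRNA, 13.8, 16.2 and 12.5 CPM with Nmd3 siRNA and 25.6 and 26.2 CPM with scramble (0.76, edgeR adjusted p = 0.000244). In both, Gnl3 siRNA and scramble libraries lay close to each other, with Nmd3 siRNA below them. Antxr1 (opposite n-R5s164), an anthrax toxin receptor that binds collagen, was at 8.64, 7.06 and 7.47 CPM with Gnl3 siRNA and 4.39, 4.97 and 3.67 CPM with Nmd3 siRNA (0.81). Sox1, a neural factor, was at 15, 14 and 15.8 CPM with Gnl3 siRNA and 9.55, 7.52 and 11 CPM with Nmd3 siRNA (0.66), and Notch4, a Notch receptor, was at 15.5, 15.9 and 15.8 CPM with Gnl3 siRNA and 22.6, 31.9 and 24.1 CPM with Nmd3 siRNA (-0.75). Plcd1, a phospholipase C, was at 13.3, 13.6 and 14.4 CPM with Gnl3 siRNA and 20.6, 24 and 18.5 CPM with Nmd3 siRNA (-0.63). None of these 4 overlapped between the knockdowns, but they were picked by their calls in this comparison, so this adds little. Inhbb, which Gnl3 siRNA lowered against scramble, differed by -0.69 (adjusted p = 6.03e-06) and by -0.75 without Nmd3 siRNA replicate 2. Slc2a1 was called without that replicate (0.33, adjusted p = 2.06e-08) and not with it (0.10, adjusted p = 0.897).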

How the data were processed

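PolyA RNA of mouse embryonic stem cells was sequenced from ER ribosomes and whole-cell lysates. The values the authors deposited are raw gene counts that were not normalized. Per the submitters' processing notes the tools were STAR 2.7.9a, HTSeq 0.11.2 and DESeq2, and the build GRCm39; annotation release and strand setting are not given in the sources used here. Lines naming no gene were left out of totals and tests; those with no feature made up 47.4% to 47.6% of entries in the 5 libraries compared. Symbols came from GENCODE M21 (GRCm38), which names 52083 of 55416 IDs, so no gene coordinates are given; promoter windows are RefSeq sequences of GRCm38.p6.

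Groups follow the labels. Counts were compared in R 4.3.3 with edgeR 4.0.16 (filterByExpr, TMM, robust glmQLFit, glmQLFTest), each comparison in a fit of its own groups, with Benjamini-Hochberg adjustment over all genes tested and no replicate block. The SE is the absolute log2 fold change over the square root of F. Gnl3 siRNA whole-cell replicate 3 stayed out of the main fits because the labels give it as an outlier the submitters left out. Deviations of same-numbered libraries of different groups correlated at -0.08 to 0.02. Lysates shared by both fractions gave only 0 to 0.04, so this measure cannot show whether numbers are pairs. Numbers were not taken as pairs in the main fits, and fits with a replicate block were run as alternatives.

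The text names Gnl3, Nmd3 and Rpl31, the 15 highest and 15 lowest called genes with a mean of at least 5 CPM and no overlap, the first 3 and up to 4 clearest called members of each of 39 lists, and up to 8 genes in each direction in the other contrasts; others are said to have been picked after their values were seen. The members and lists were chosen with earlier results of these data known. Alternatives were DESeq2 1.42.0, other scalings and filters, leaving out each library, a replicate block, and more libraries in a fit. Some genes that the naming rule picks are not reported here.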

Additional observations from a re-analysis of the deposited data

Results flagged for a closer look

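Ftl1, the ferritin light chain, was the gene at which the effect of Gnl3 siRNA differed between both fractions by a test of the difference itself. The log2 effect on ER ribosomes minus that in whole-cell RNA was -0.37 (SE 0.06, edgeR adjusted p = 0.000161). Ftl1 was lower with Gnl3 siRNA in 3 of 3 ER libraries. No group has more than 3 libraries, so single libraries were not tested as outliers.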

How the results depend on the processing

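The log2 fold change of Gnl3 on ER ribosomes was -2.64 to -2.51 in 13 alternatives. Of 148 called genes picked by the rule for named genes on ER ribosomes, 79 remained called without scramble replicate 2, 101 without scramble replicate 3, 120 to 135 without a Gnl3 siRNA library, 132 of 147 with DESeq2, 137 with a replicate block 86 with all 8 ER libraries in the fit and 140 with Nmd3 siRNA replicate 2 left out of it, and none of them changed sign. Genes called on ER ribosomes numbered 472 to 1309 when 1 library was left out, 894 with DESeq2, 472 with all 8 ER libraries in the fit and 1173 without Nmd3 siRNA replicate 2 there, so most of the drop was seen only with that library in the fit. In whole-cell RNA leaving out 1 library gave 126 to 351, and Gnl3 siRNA whole-cell replicate 3 gave 0. For the difference between fractions DESeq2 called 4 genes, no filter on low counts 10, leaving out 1 library 1 to 37, and adding that replicate 0, where Ftl1 reversed to 0.16. Against Nmd3 siRNA no filter gave 481, leaving out 1 library 81 to 604, and adding scramble libraries 387. With the replicate number as a block, counts were 1435 on ER ribosomes, 174 in whole-cell RNA and 193 against Nmd3 siRNA, and 2 for the difference with culture as the block. The cause of these shifts was not tested. With 2 scramble libraries of 18.5 and 18.9 M counts, calls near the threshold depend on either one.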
